A study of Mus musculus with 18 samples.

Results

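The fibrillar collagens I, III and V are described here through the 6 genes that encode their chains: Col1a1, Col1a2, Col3a1, Col5a1, Col5a2 and Col5a3. They were taken by symbol after matching the Ensembl identifiers of the count files to GENCODE M21, and are 6 of the 53342 identifiers in each file. All 6 were among the 15762 genes that passed the filter on low counts.

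Collagens I, III and V are secreted as triple helices that assemble into the banded fibrils of the heart's interstitium, and fibroblasts are their main cardiac source. Collagen I is usually built from a pair of alpha-1 chains and an alpha-2 chain, and collagen III from alpha-1 chains only. Collagen V is a minor partner that starts fibrils and limits their width, and it occurs with alpha-1 and alpha-2 chains or with an added alpha-3 chain.

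RNA was sequenced from cells sorted from mouse hearts as positive for Thy1, a surface protein used to isolate cardiac fibroblasts, and negative for a marker set that the labels call HE without spelling it out. The mice were C57BL/6, C3H/HeJ or KK/HlJ, with no transgene named in the labels, and the series asks whether genetic background alters the behaviour of cardiac fibroblasts in injury caused by isoproterenol (ISO), which stimulates beta-adrenergic receptors. Every group had an implanted pump. Sham mice received saline, and ISO mice were sampled 14 or 21 days after implantation. The labels give no age, sex, dose or hour of sampling, and the sham samples carry no day, so the same sham libraries served both days in each strain. The 9 groups held 2 libraries each. Whether a pair came from 2 animals or from pooled hearts is not stated, so the tests weigh differences against the spread between libraries, which may be technical.

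Total counts ran from 7230741 to 26280685 per library, and the 6 chains together took 1.04% to 4.03% of them, with a median of 1.5% in sham and 2.51% in ISO libraries. The smallest count behind any value of a chain was 1718. In CPM (counts scaled to a common library size), 8 fibroblast markers summed to 83010 to 111000 in sham (median 100100) and 70060 to 111600 in ISO libraries (median 85960). Gsn alone was at 55200 to 98000 over all libraries (median 69100), so this sum rests largely on that gene. Over all libraries, 10 endothelial markers summed to 183.6 to 1031, 7 cardiomyocyte markers to 55.02 to 314.4, 7 Schwann and glia markers to 123.6 to 408.6 and 4 erythroid markers to 1.388 to 232.5. Tek alone was at 104 to 305 (median 209) among the endothelial markers, and Gpm6b at 77 to 345 (median 174) among those of glia. The 6 mesothelial and epicardial markers summed to 173.6 to 432.7 in sham (median 323.4) and 109.8 to 516.1 in ISO libraries (median 216.6). The 6 T cell markers summed to 0 to 12.22 over all libraries, and Cd3g and Cd3d among them were at 0 counts in every library. The 11 pericyte and smooth muscle markers summed to 1772 to 6431 CPM in sham (median 2748) and 1185 to 5312 in ISO libraries (median 1941), and the 10 macrophage and monocyte markers to 5.433 to 19.31 in sham (median 11.93) and 3.803 to 210.2 in ISO libraries (median 22.12). The part of these markers in the collagen values was not tested. In such sorted bulk samples, fewer cells of a type and less RNA per cell cannot be told apart. Replicate 1 of C3H/HeJ sham, KK/HlJ sham, KK/HlJ ISO day 14 and KK/HlJ ISO day 21 stood apart, with median correlations to the other libraries of 0.685 to 0.751 against 0.824 to 0.898. The main tests were repeated without these 4 libraries, on the same 15762 genes, which leaves 1 library in C3H/HeJ sham and in every KK/HlJ group. Wherever a group is left with 1 library, here and in fits that leave out a single library, that library is assumed to vary like those of the other groups.

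On mm10, Col1a1 (ENSMUSG00000001506) lies on the forward strand of chr11:94936224-94953042 and Col1a2 (ENSMUSG00000029661) on the forward strand of chr6:4504814-4541544. Col3a1 (ENSMUSG00000026043, chr1:45311538-45349706, forward) and Col5a2 (ENSMUSG00000026042, chr1:45374321-45503282, reverse) are neighbours whose 3′ ends face each other across 24614 bases. Col5a1 (ENSMUSG00000026837) lies on the forward strand of chr2:27886425-28039514, and Col5a3 (ENSMUSG00000004098) on the reverse strand of chr9:20770050-20815067. The strand setting of the counting is not given in the sources used here, so reads shared with overlapping genes cannot be assigned. Those genes held few reads: Gm47302 within Col3a1 had 0 counts, and the antisense 2810430I11Rik and Gm13372 at Col5a1 had at most 66 and 14.

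The stretch of 150 bases upstream of the RefSeq start (GRCm38.p6, the assembly behind mm10) is shown for Col1a2, Col3a1, Col5a1 and Col5a3, the 4 of the 6 members that matched an entry of the promoter table, so that the upstream letters of Col5a3, whose levels did not follow the other chains, can be read beside those of 3 of them. Col1a1 and Col5a2 are not shown. The Col1a2 window lies inside the gene as annotated in GENCODE M21, which starts at chr6:4504814, so it is upstream of the RefSeq start only. The other windows end at the annotated start of the gene. Capitals mark matches, on either strand, to the CCAAT box (searched as CCAAT), the GC box (searched as GGGCGG) and a TATA-like word (searched as TATAAA). The E-box read by clock factors (searched as CACGTG) was looked for as well. No matches overlapped, and both GC box words of Col5a3 read as the reverse complement. Each sequence runs 5′ to 3′ towards the start.
Col1a2, chr6:4505468-4505617, forward: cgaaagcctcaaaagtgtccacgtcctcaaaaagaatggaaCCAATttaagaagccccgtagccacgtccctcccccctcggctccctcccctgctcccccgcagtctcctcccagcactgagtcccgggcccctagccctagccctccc
Col3a1, chr1:45311388-45311537, forward: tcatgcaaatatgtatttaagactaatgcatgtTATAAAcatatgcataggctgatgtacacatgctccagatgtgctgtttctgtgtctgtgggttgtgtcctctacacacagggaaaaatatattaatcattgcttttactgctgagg
Col5a1, chr2:27886275-27886424, forward: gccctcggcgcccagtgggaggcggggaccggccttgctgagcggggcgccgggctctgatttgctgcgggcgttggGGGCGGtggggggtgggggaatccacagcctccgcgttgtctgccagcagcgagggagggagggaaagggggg
Col5a3, chr9:20815068-20815217, reverse: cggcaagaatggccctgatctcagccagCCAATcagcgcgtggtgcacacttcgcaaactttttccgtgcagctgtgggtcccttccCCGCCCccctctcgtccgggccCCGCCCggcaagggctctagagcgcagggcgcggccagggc

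The Col3a1 window held 37.3% G and C, lower than all but 7.3% of the 32851 windows of that length in the table. The windows of Col5a1 (74.7%), Col5a3 (68.7%) and Col1a2 (62.7%) were above the median of 54.0%. Col5a3 held 2 GC box words and a CCAAT word, Col5a1 held 1 GC box word, Col1a2 held 1 CCAAT word and Col3a1 held 1 TATAAA word. Over all windows, 24.5% held a CCAAT word, 28.6% a GC box word, 7.57% a TATAAA word and 4.3% a CACGTG word, which none of the 4 windows held. A match is a description of the letters only.

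Col3a1 had the highest mean level of the 6, 9179 CPM over the 18 libraries, which ranked 3 of the 15762 genes before any allowance for length. Col1a1 (5091 CPM) ranked 9, Col1a2 (4490) ranked 11, Col5a1 (1718) ranked 58, Col5a2 (745.4) ranked 173 and Col5a3 (568.8) ranked 219. Chains can be compared only per length, and here the choice of length mattered. Per kilobase of all annotated exons, the sham medians were 612.2 CPM for Col1a1, 539.2 for Col3a1, 268.5 for Col1a2, 161.3 for Col5a1, 113.7 for Col5a3 and 54.88 for Col5a2. Per kilobase of longest annotated transcript, they were 951.1 for Col3a1, 677.6 for Col1a1, 623.8 for Col1a2, 162.9 for Col5a1, 126.5 for Col5a3 and 79.45 for Col5a2. The exons of Col1a2 add up to 12426 bases against 5348 in its longest transcript, so its median lay far below that of Col1a1 on the exon scale and close to it on the transcript scale. Over the 6 sham libraries the exon-scale ranges of Col1a1 (394.5 to 1026) and Col3a1 (346.5 to 855.8) overlapped, as did those of Col5a1 (130.4 to 273.3) and Col5a3 (58.64 to 163.6), and of Col5a3 and Col5a2 (33.32 to 76.32). All collagen V chains lay below Col1a1 and Col3a1 on both scales.

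Col1a1, the alpha-1 chain of collagen I, was at 3353 and 2589 CPM in replicates 1 and 2 of C57BL/6 sham, 4650 and 4513 at ISO day 14, and 2029 and 4329 at day 21. The C3H/HeJ pairs were 3793 and 6735 (sham), 8539 and 9355 (day 14), and 6342 and 6254 (day 21). For KK/HlJ, sham gave 4242 and 4289, day 14 gave 4522 and 4813, and day 21 gave 5405 and 5877. All 6 day 14 libraries exceeded both sham libraries of their strain, by a wide margin in C57BL/6 and C3H/HeJ and a narrow one in KK/HlJ. Only 3 of 6 did so at day 21, where the C57BL/6 pair was split around sham.

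Col1a2, the alpha-2 chain of collagen I, was at 3149 and 3233 CPM in C57BL/6 sham, then 5510 and 4152 at day 14, then 2330 and 4547 at day 21. The C3H/HeJ pairs were 4077 and 3440 (sham), 7271 and 8418 (day 14), and 5532 and 6131 (day 21). For KK/HlJ, sham gave 2423 and 3761, day 14 gave 2073 and 4987, and day 21 gave 4108 and 5680. The C3H/HeJ ISO libraries were all above their sham, and the KK/HlJ pair at day 14 fell on both sides of it. In all, 10 of 12 ISO libraries exceeded both sham libraries of their strain and 2 were below both.

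Col3a1, the chain of collagen III, was at 6123 and 4464 CPM in C57BL/6 sham, then 14770 and 10750 at day 14, then 3634 and 7154 at day 21. The C3H/HeJ pairs were 3748 and 7590 (sham), 10930 and 18710 (day 14), and 10320 and 12390 (day 21). For KK/HlJ, sham gave 3401 and 8401, day 14 gave 6442 and 13060, and day 21 gave 8569 and 14770. The sham pairs of C3H/HeJ and KK/HlJ were far apart, yet 10 of 12 ISO libraries exceeded both sham libraries of their strain. The exceptions were replicate 1 of KK/HlJ day 14, which lay between its sham libraries, and replicate 1 of C57BL/6 day 21, which lay below both.

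Col5a1, the chain common to all collagen V trimers named above, was at 1575 and 1107 CPM in C57BL/6 sham, then 2182 and 1758 at day 14, then 839.5 and 1354 at day 21. The C3H/HeJ pairs were 1164 and 2321 (sham), 1944 and 2520 (day 14), and 1791 and 2266 (day 21). For KK/HlJ, sham gave 1137 and 1670, day 14 gave 1434 and 1897, and day 21 gave 1599 and 2370. It varied least of the 6 chains, 3-fold from lowest to highest library, and 5 of 12 ISO libraries exceeded both sham libraries of their strain.

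Col5a2, the alpha-2 chain of collagen V, was at 671.2 and 497.6 CPM in C57BL/6 sham, then 1319 and 781.6 at day 14, then 523.6 and 566.8 at day 21. The C3H/HeJ pairs were 319.6 and 555.1 (sham), 793.6 and 1152 (day 14), and 690.5 and 1029 (day 21). For KK/HlJ, sham gave 343.2 and 732, day 14 gave 585.5 and 944.8, and day 21 gave 731.7 and 1179. Every C3H/HeJ ISO library was above both C3H/HeJ sham libraries, whereas the C57BL/6 day 21 pair lay between its sham libraries. Over the strains, 8 of 12 ISO libraries were above both sham libraries and 0 were below both.

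Col5a3, the alpha-3 chain of collagen V, was at 443.7 and 810.1 CPM in C57BL/6 sham, then 933.7 and 425.6 at day 14, then 241 and 799.7 at day 21. The C3H/HeJ pairs were 1114 and 955.3 (sham), 914.4 and 271.1 (day 14), and 156.5 and 707.8 (day 21). For KK/HlJ, sham gave 737.9 and 399.3, day 14 gave 297.2 and 204.6, and day 21 gave 149.6 and 676.8. It varied most of the 6, 7.45-fold from lowest to highest library, and replicates of 1 group differed by up to several-fold. Of 12 ISO libraries, 9 lay below both sham libraries of their strain and 1 above both, whereas the other chains lay more often above. The share of all genes with such a count below sham was not computed. C57BL/6 at day 14 did not share this direction, since its libraries lay on both sides of the sham pair. There the log2 difference from sham was 0.12 (SE 0.92, edgeR fit), and it was -0.27 (SE 0.92) at day 21. C3H/HeJ gave -0.80 (SE 0.92) at day 14 and -1.26 (SE 0.93) at day 21. The KK/HlJ values were -1.18 (SE 0.93) and -0.46 (SE 0.92).

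**Figure D1:**
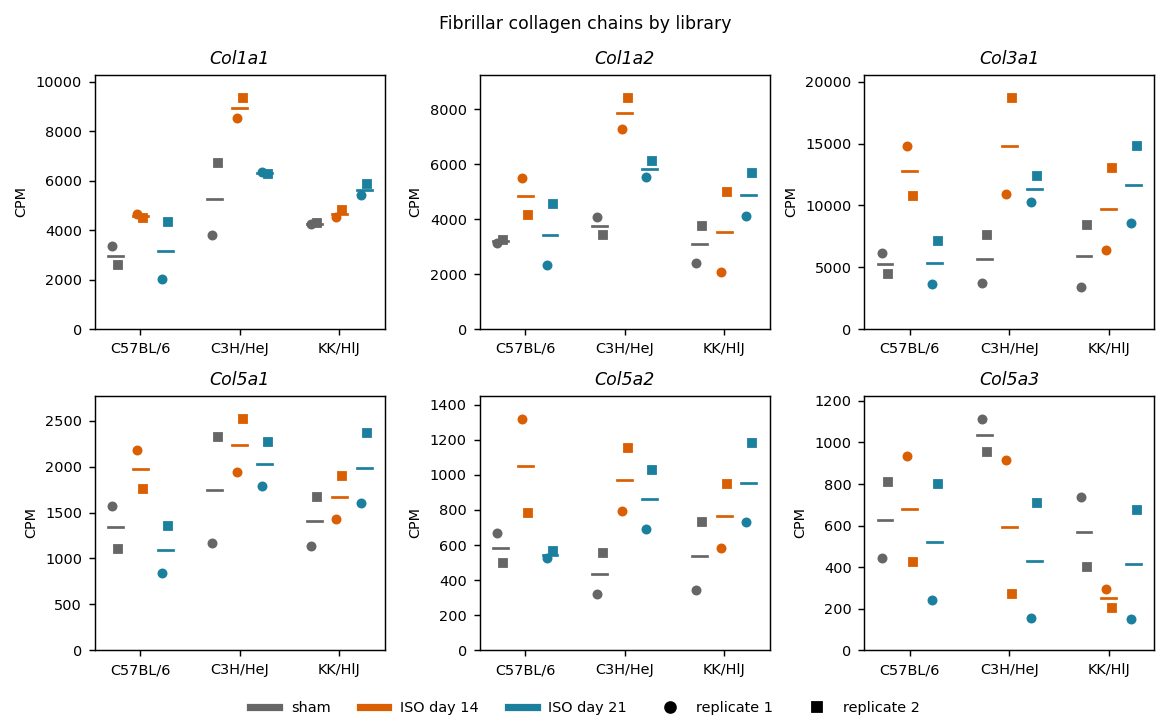
Level of each chain (CPM, linear axis from 0) in the 18 libraries, by strain and condition. Circles are replicate 1, squares replicate 2, and bars the mean of the pair. Col3a1 in C57BL/6 lies at 4464 and 6123 CPM in sham and at 10750 and 14770 at ISO day 14, and Col5a3 pairs are widely split.

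The ISO comparison asks how fibroblast collagen RNA responded to ISO. For the mean of the 3 strains at day 14, the log2 difference from sham was 1.13 for Col3a1 (SE 0.29), 0.84 for Col5a2 (SE 0.23), 0.62 for Col1a2 (SE 0.22), 0.51 for Col1a1 (SE 0.19), 0.39 for Col5a1 (SE 0.21) and -0.62 for Col5a3 (SE 0.53). None of the 6 passed edgeR's quasi-likelihood test after Benjamini-Hochberg adjustment over all genes, with adjusted p-values of 0.371 for Col3a1, 0.407 for Col5a2, 0.77 for Col1a2, 0.783 for Col1a1, 0.904 for Col5a1 and 1 for Col5a3. The test called 0.0381% of all genes, so few genes of any kind passed. At an unadjusted p under 0.05, 4 of the 6 chains were counted (Col1a1, Col1a2, Col3a1 and Col5a2) against 5.51% of all genes. Their median fold over the 6 was 0.562 on the log2 scale against 0.019 for all genes. Col1a1 was the 1 chain above both sham libraries of the strain in 6 of 6 day 14 libraries, as were 0.692% of genes.

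The Col3a1 difference at day 14 kept its direction in all 20 alternatives run, from 0.93 to 1.39 on the log2 scale, and its test result depended on the setting. It was called by DESeq2 (adjusted p = 0.029) and by edgeR with no filter on low counts (2.13e-07), but not in the other 6 settings, the fit without the 4 libraries that stood apart among them (log2 fold 0.96, adjusted p = 0.0848), nor in any of the 12 edgeR fits that left out 1 library. Col5a2 at day 14 kept its direction likewise, from 0.67 to 1.05, and was called with no filter only (edgeR, adjusted p = 0.0157). The other 4 chains were called in none of these 20 alternatives. DESeq2 called 122 genes of any kind there and edgeR with no filter 75, against 6 as reported, while 94 were called without the 4 libraries and 3 to 234 with 1 library left out. With no filter, edgeR's prior degrees of freedom, which set how far a gene's own spread is drawn to the common trend, were infinite for Col3a1, against 6.56 as reported. The same happened in many fits without 1 library when the filter was recomputed for the libraries left, a setting chosen after seeing the data: the filter then kept more genes, and Col3a1 was called in 7 of those 12 fits and Col5a2 in 5.

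At day 21, the mean differences, smaller in size than at day 14 for every chain but Col5a3, were 0.67 (SE 0.29) for Col3a1, 0.57 (SE 0.23) for Col5a2, 0.47 (SE 0.22) for Col1a2, 0.25 (SE 0.19) for Col1a1, 0.14 (SE 0.21) for Col5a1 and -0.66 (SE 0.53) for Col5a3, on the log2 scale. None of the 6 chains passed the edgeR test, which called 0.0444% of genes, and the adjusted p was 0.953 for Col1a2, Col3a1 and Col5a2. Over the 20 alternatives these folds ran from 0.48 to 0.94 for Col3a1, 0.40 to 0.78 for Col5a2, 0.28 to 0.60 for Col1a2, 0.0374 to 0.40 for Col1a1, 0.0077 to 0.33 for Col5a1 and -1.15 to -0.21 for Col5a3. With the 4 libraries left out they were 0.48 for Col3a1, 0.41 for Col5a2, 0.49 for Col1a2, 0.16 for Col1a1, 0.0112 for Col5a1 and -0.21 for Col5a3. Col1a2, Col3a1 and Col5a2 were counted at an unadjusted p under 0.05, as were 5.09% of all genes. Col3a1 was called by edgeR with no filter (adjusted p = 0.0437), where 55 genes were called against 7 as reported, and no chain was called in any of the other 19 alternatives. None was above both sham libraries in 6 of 6 day 21 libraries, as 0.285% of genes were. Both days share the sham libraries. Averaged over both days, the differences were 0.90 for Col3a1 (SE 0.26, edgeR adjusted p = 0.412), 0.70 for Col5a2 (SE 0.21, 0.404), 0.54 for Col1a2 (SE 0.19, 0.548), 0.38 for Col1a1 (SE 0.17, 0.697), 0.26 for Col5a1 (SE 0.18, 0.89) and -0.64 for Col5a3 (SE 0.45, 0.913). None passed, against 0.0571% of all genes, and 4 were counted at an unadjusted p under 0.05 against 6.69% of all genes. No chain was above sham in 12 of 12 ISO libraries, as 0.102% of genes were.

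Day 21 was set directly against day 14. As means of the strains, all 6 log2 differences were negative, at -0.46 (SE 0.29) for Col3a1, -0.27 (SE 0.23) for Col5a2, -0.25 (SE 0.19) for Col1a1, -0.24 (SE 0.21) for Col5a1, -0.15 (SE 0.22) for Col1a2 and -0.04 (SE 0.53) for Col5a3. The strains did not share this direction. In C57BL/6 and C3H/HeJ the fold against sham was lower at day 21 than at day 14 for every chain. In KK/HlJ it was higher for every chain, as for Col1a2 (0.19 at day 14, 0.66 at day 21) and Col5a2 (0.51, 0.83). None passed the edgeR test, which called 0% of genes at this contrast, with 293 genes and none of the 6 chains at an unadjusted p under 0.05. DESeq2 called 1 gene there and voom 0, no filter gave 8, and the fit without the 4 libraries gave 1. With 1 library left out the count was 0 in 10 of 12 fits, and no chain was called. The exceptions both left out a KK/HlJ library: replicate 2 of ISO day 14 gave 215 genes and replicate 2 of ISO day 21 gave 67. The signs of Col1a2 and Col5a3 turned when single libraries were left out, with ranges of -0.33 to 0.11 and -0.53 to 0.34.

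Within C57BL/6, the log2 difference of Col3a1 from sham was 1.27 (SE 0.50) at day 14 and 0.03 (SE 0.50) at day 21. C3H/HeJ gave 1.39 (SE 0.50) and 1 (SE 0.50) for the same days, and KK/HlJ gave 0.72 (SE 0.50) and 0.98 (SE 0.50). These folds moved with single libraries. In KK/HlJ they ran at day 14 from 0.13 without ISO day 14 replicate 2 to 1.52 without sham replicate 2, and at day 21 from 0.47 without sham replicate 1 to 1.78 without sham replicate 2. The C3H/HeJ folds ran from 0.94 without ISO day 14 replicate 2 to 1.96 without sham replicate 2 at day 14, and from 0.59 without sham replicate 1 to 1.58 without sham replicate 2 at day 21. Leaving out the 4 libraries gave 0.98 (day 14) and 0.59 (day 21) for C3H/HeJ. For KK/HlJ it gave 0.62 (day 14) and 0.81 (day 21). The C57BL/6 value at day 21 averages 1 library below both sham libraries and 1 above both. In C3H/HeJ at day 14, Col1a1 differed by 0.77 (SE 0.33), Col1a2 by 1.06 (SE 0.38) and Col5a2 by 1.15 (SE 0.41), and at day 21 Col5a2 differed by 0.98 (SE 0.41). Leaving out the 4 libraries made these values 0.42, 1.20, 0.82 and 0.64. Col5a2 in C57BL/6 at day 14 differed by 0.85 (SE 0.41). The values given beside those of Col3a1 each had an unadjusted p under 0.05. Folds that missed it, some of similar size, included Col5a2 (0.83, SE 0.41) and Col1a2 (0.66, SE 0.37) in KK/HlJ at day 21. In C57BL/6 at day 14 they included Col1a1 (0.625, SE 0.33) and Col1a2 (0.60, SE 0.37). With 2 libraries a side, 0 of 6 chains passed the edgeR test in any strain and day. That test called 0% of genes in C57BL/6 at day 14 and 0% at day 21, 0.0127% in C3H/HeJ at day 14 and 0% at day 21, and 0% in KK/HlJ at day 14 and 0.019% at day 21. At an unadjusted p under 0.05, the comparisons with no calls held 173 genes (C57BL/6 day 14), 326 (C57BL/6 day 21), 911 (C3H/HeJ day 21) and 747 (KK/HlJ day 14). DESeq2 called 12, 11, 92 and 126 genes in them and voom 1, 0, 0 and 0. The chains at an unadjusted p under 0.05 were Col3a1 and Col5a2 in C57BL/6 at day 14, Col1a1, Col1a2, Col3a1 and Col5a2 in C3H/HeJ at day 14, and Col5a2 in C3H/HeJ at day 21. With no filter Col3a1 was called in C3H/HeJ at day 14 (1.39, edgeR adjusted p = 0.00907). Apart from fits with the filter recomputed, no other alternative called a chain in a single strain.

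**Figure D2:**
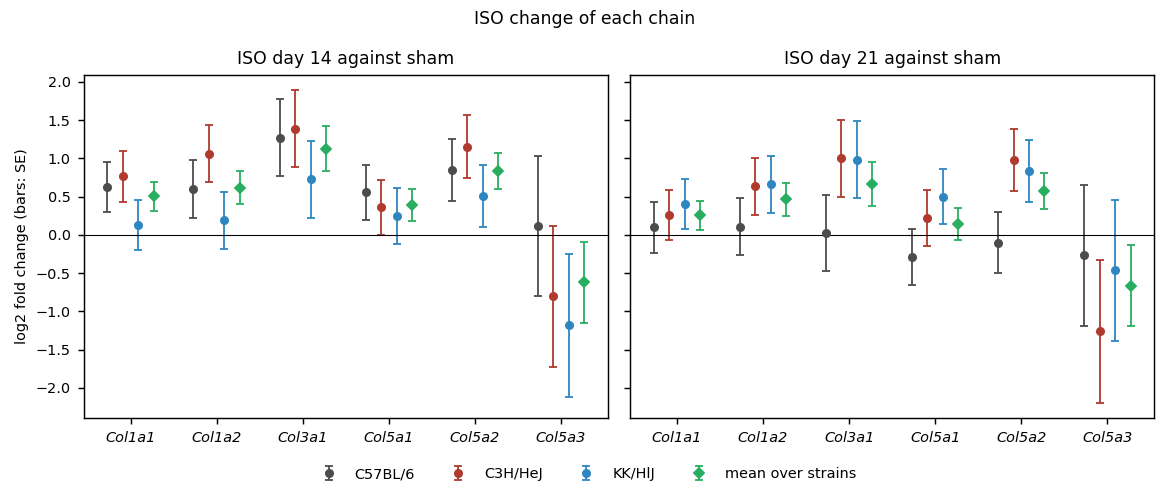
Log2 fold change of each chain, ISO against sham, at day 14 (left) and day 21 (right), from the edgeR fit of all 18 libraries. Circles are the 3 strains, green diamonds their mean, and bars the SE; Col3a1 lies highest at day 14 and Col5a3 lies below 0 in the means, and none of these values passed the adjusted test.

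Whether strains differed in their response was tested as the difference of their mean ISO changes over both days. For Col3a1 the log2 difference was 0.55 (SE 0.61) for C3H/HeJ against C57BL/6, 0.21 (SE 0.61) for KK/HlJ against C57BL/6 and -0.34 (SE 0.61) for KK/HlJ against C3H/HeJ. For Col5a2 it was 0.69 (SE 0.49), 0.30 (SE 0.49) and -0.39 (SE 0.49) in the same order. With SEs of this size, a missed threshold does not show equal responses. None of the 6 chains passed the edgeR test in the 3 pairs of strains, and 0%, 0% and 0% of all genes did. At an unadjusted p under 0.05, 562, 806 and 659 genes were counted and no chain, while DESeq2 called 8, 61 and 47 genes and no chain, and voom called 0 in each. Leaving out the 4 libraries gave 0, 23 and 22 genes, and leaving out 1 library 0 to 95, 0 to 58 and 0 to 130, with no chain among them.

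Baselines were compared between sham libraries. The log2 difference of Col1a1 from C57BL/6 was 0.83 in C3H/HeJ (SE 0.33, edgeR adjusted p = 0.945) and 0.52 in KK/HlJ (SE 0.33, 0.968). Col3a1 gave 0.10 in C3H/HeJ and 0.16 in KK/HlJ against C57BL/6, and 0.06 in KK/HlJ against C3H/HeJ (SE 0.50 each). Col5a3 averaged 1030 ± 112 CPM (SD, n = 2) in C3H/HeJ sham, 627 ± 259 in C57BL/6 sham and 569 ± 239 in KK/HlJ sham. None of the 6 chains passed in any pair, where the test called 0.102% of genes for C3H/HeJ against C57BL/6, 0.0508% for KK/HlJ against C57BL/6 and 0.152% for KK/HlJ against C3H/HeJ. With the 4 libraries left out, the Col1a1 difference between C3H/HeJ and C57BL/6 was 1.17 (edgeR adjusted p = 0.22).

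Averaged over sham, day 14 and day 21, Col1a1 was higher in C3H/HeJ than in C57BL/6 by 0.93 on the log2 scale (SE 0.19, edgeR adjusted p = 0.0177), and this was the only one of the 6 chains to pass in any of the 19 comparisons. The test called 0.647% of genes for this pair. In each of the 3 conditions both C3H/HeJ libraries lay above both C57BL/6 libraries for Col1a1 and for Col1a2, as for 2.2% of genes. The Col1a1 call held in all 8 alternative settings, including RLE scaling (0.90, adjusted p = 0.015), the length and GC offsets (0.73, 0.0364) and the fit without the 4 libraries that stood apart (1.03, 0.00234). It held in 5 of 12 fits that left out 1 library. In the other 7 the difference was 0.78 to 0.93 with edgeR adjusted p-values of 0.0542 to 0.115: these left out replicate 2 of C57BL/6 sham, either ISO day 14 replicate or ISO day 21 replicate 1 of C57BL/6, and ISO day 14 replicate 2 or either ISO day 21 replicate of C3H/HeJ. Reads of all 3 strains were mapped to mm10, which derives from C57BL/6.

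Col1a2 differed between C3H/HeJ and C57BL/6 by 0.57 (SE 0.22, edgeR adjusted p = 0.453), Col5a1 by 0.48 (SE 0.21, 0.532) and Col3a1 by 0.46 (SE 0.29, 0.788). With the 4 libraries left out, Col5a1 differed by 0.61 (edgeR adjusted p = 0.0704). Col5a2 (0.04, SE 0.23) and Col5a3 (0.09, SE 0.53) had the smallest differences between these strains. For KK/HlJ against C57BL/6, Col1a1 differed by 0.46 (SE 0.19, edgeR adjusted p = 0.77), Col1a2 by 0.00 (SE 0.22) and Col5a3 by -0.64 (SE 0.53), and none of the 6 passed against 0.273% of genes. For KK/HlJ against C3H/HeJ, Col1a2 differed by -0.56 (SE 0.22, edgeR adjusted p = 0.579) and Col1a1 by -0.47 (SE 0.19, 0.648), and again none passed against 0.406% of genes. With 1 library left out, 27 to 357 genes were called against C57BL/6 (43 as reported) and 38 to 316 against C3H/HeJ (64 as reported). The only chain called in these fits was Col1a2 against C3H/HeJ without KK/HlJ ISO day 14 replicate 2 (-0.82, edgeR adjusted p = 0.045).

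Ratios of chains within a library need no scaling between libraries. The type III to type I ratio, Col3a1 to Col1a1, was higher with ISO over both days by 0.55 on the log2 scale, a factor of 1.46 (exact two-sided permutation test within strains, p = 0.0222, adjusted p = 0.043 over 5 ratios). As ratios of counts, C57BL/6 sham libraries were at 1.83 and 1.72, day 14 at 3.18 and 2.38, and day 21 at 1.79 and 1.65. C3H/HeJ sham libraries were at 0.988 and 1.13, day 14 at 1.28 and 2, and day 21 at 1.63 and 1.98. KK/HlJ sham libraries were at 0.802 and 1.96, day 14 at 1.42 and 2.71, and day 21 at 1.59 and 2.51. All C3H/HeJ ISO libraries lay above both C3H/HeJ sham libraries, whereas the C57BL/6 day 21 pair lay within or below its sham pair and the KK/HlJ sham pair was wide. The strain differences behind the mean ran from 0.29 to 0.68.

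The alpha-2 to alpha-1 ratio of collagen V, Col5a2 to Col5a1, was higher with ISO by 0.44 on the log2 scale, a factor of 1.35 (exact permutation test, p = 0.00385, adjusted p = 0.0193 over 5 ratios). C57BL/6 sham libraries were at 0.426 and 0.45, day 14 at 0.605 and 0.445, and day 21 at 0.624 and 0.418. C3H/HeJ sham libraries were at 0.275 and 0.239, day 14 at 0.408 and 0.457, and day 21 at 0.386 and 0.454. KK/HlJ sham libraries were at 0.302 and 0.438, day 14 at 0.408 and 0.498, and day 21 at 0.458 and 0.498. The C3H/HeJ sham libraries were the lowest of all 18, and in C57BL/6 1 library of each day was near sham. The differences by strain ran from 0.23 to 0.73.

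The alpha-3 to alpha-1 ratio of collagen V, Col5a3 to Col5a1, was lower with ISO by a factor of 0.461, a log2 difference of -1.12 (exact permutation test, p = 0.0258, adjusted p = 0.043 over 5 ratios). The C57BL/6 libraries gave 0.282 and 0.732 (sham), 0.428 and 0.242 (day 14), and 0.287 and 0.59 (day 21). The C3H/HeJ libraries gave 0.957 and 0.412 (sham), 0.47 and 0.108 (day 14), and 0.0874 and 0.312 (day 21). The KK/HlJ libraries gave 0.649 and 0.239 (sham), 0.207 and 0.108 (day 14), and 0.0936 and 0.286 (day 21). Sham and ISO ranges overlapped in every strain, and the ratio spanned 0.0874 to 0.957 over all libraries.

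The other ratios did not pass the test. Col1a2 to Col1a1 had a median of 0.908 in sham and 0.943 in ISO libraries, a log2 difference of 0.13 (exact permutation test, adjusted p = 0.501), and ran from 0.458 to 1.25 over the 18 libraries. Col5a1 to Col1a1 had a median of 0.367 in sham and 0.34 in ISO libraries, a log2 difference of -0.10 (exact permutation test, adjusted p = 0.501). Per kilobase, the sham median of Col1a2 to Col1a1 was 0.48 on exon length, 1.01 on longest transcript and 0.962 on coding length. That of Col3a1 to Col1a1 was 0.952, 1.52 and 1.42, that of Col5a2 to Col5a1 0.322, 0.462 and 0.447, and that of Col5a3 to Col5a1 0.662, 0.728 and 0.56, in the same order. Differences between conditions do not depend on that choice, since a length cancels.

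These 3 ratio calls depended on the setting. Without the 4 libraries that stood apart none held, but the exact permutation test then has fewer arrangements. A call lost there may reflect the coarser test as well as the libraries. The log2 difference was 0.43 for Col3a1 to Col1a1 (0.55 with all libraries), 0.42 for Col5a2 to Col5a1 (0.44) and -0.62 for Col5a3 to Col5a1 (-1.12). With per-library offsets for exon length and GC content, Col5a2 to Col5a1 held (log2 difference 0.27, adjusted p = 0.0267), and Col3a1 to Col1a1 (0.42, 0.0617) and Col5a3 to Col5a1 (-1.03, 0.0617) did not, by the same test. The slope of expression on GC content ran from -0.605 to 0.593 per 10 GC points over the libraries, and the chains differ in GC content, from 49.6% in Col5a2 and 52.5% in Col3a1 to 58.9% in Col1a1 and 61.6% in Col5a3. Leaving out 1 library kept the Col5a2 to Col5a1 call in 16 of 18 cases, the exceptions being C3H/HeJ sham replicate 1 (exact permutation test, adjusted p = 0.0533) and KK/HlJ sham replicate 1 (0.0667). The calls of Col3a1 to Col1a1 and of Col5a3 to Col5a1 each held in 7 of 18, and without KK/HlJ sham replicate 1 the adjusted p was 0.176 for both. Neither day alone gave a call for any ratio, with adjusted p-values of at least 0.139 over 10 tests, where the smallest unadjusted p that 216 arrangements allow is 0.00926. A lone ratio at that smallest p could not pass over 10 tests either, so the tests by day cannot decide for single ratios.

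**Figure D3:**
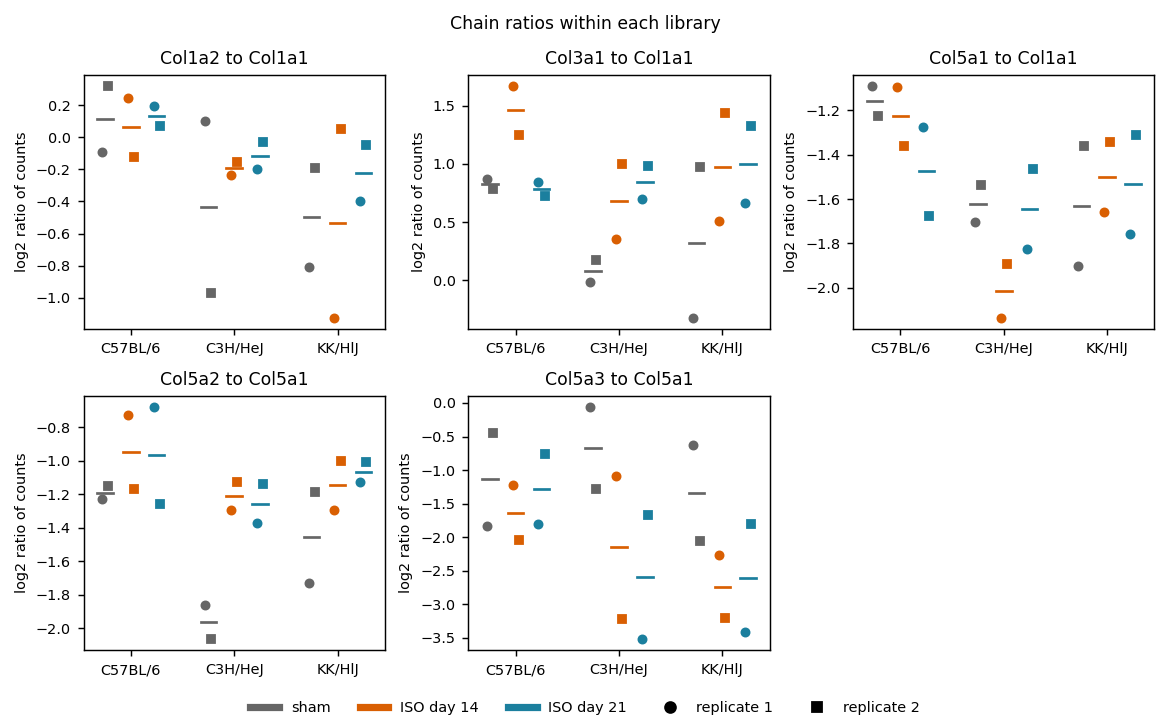
Log2 ratio of counts of 2 chains within each library, by strain and condition. Circles are replicate 1, squares replicate 2, and bars the mean of the pair. The C3H/HeJ sham libraries have the lowest Col5a2 to Col5a1 ratios, and ISO libraries of C3H/HeJ and KK/HlJ reach the lowest Col5a3 to Col5a1 ratios.

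Strains were compared for the same ratios within conditions. C3H/HeJ against C57BL/6 differed by -0.49 for Col3a1 to Col1a1, -0.47 for Col5a1 to Col1a1, -0.44 for Col5a2 to Col5a1 and -0.35 for Col1a2 to Col1a1 on the log2 scale, each with an adjusted p of 0.139 over 15 exact permutation tests. KK/HlJ against C57BL/6 differed by -0.52 for Col1a2 to Col1a1, with the same adjusted p. No ratio passed for any pair of strains, and an unadjusted p under 0.00926 was not possible in this design. A lone ratio at that smallest p could not pass after adjustment over 15 tests. The missed threshold therefore does not show equal ratios.

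The libraries also show which genes each chain varied with, over the 18 libraries in log2 CPM among 9819 genes with a mean of at least 5 CPM and no predicted or clone name. These Pearson correlations are descriptions, since libraries share strain, treatment and scaling. Col3a1 was most like Col5a2 (r = 0.933), Col14a1 (0.921), a fibril-associated collagen, and Col5a1 (0.906). Col5a2 was most like Col3a1, its neighbour on chromosome 1, then Calu (0.891) and Slc35f5 (0.889). Col5a1 was most like Col3a1, then Tnfaip3 (0.899) and Col4a2 (0.89), a basement membrane collagen chain. Col1a1 was most like Adamts2 (0.916), the protease that removes the amino-terminal propeptide of fibrillar procollagens, then Mmp2 (0.909), a gelatinase, and Bgn (0.878), a small proteoglycan. Col1a2 was most like Nrep (0.908), Col4a5 (0.85) and App (0.838), and its correlation with its partner chain Col1a1 was 0.733. Among the 5 chains other than Col5a3, the lowest correlation was that of Col1a1 and Col5a2, 0.504.

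Col5a3 stood apart from the other 5 chains, with r between -0.201 (Col5a2) and 0.058 (Col1a2). The genes most like it were Arntl (r = 0.936) and Npas2 (0.889), which encode partner transcription factors of the circadian clock, and Eln (0.842), which encodes elastin. The gene most opposite to it was Per2 (r = -0.913), a clock repressor. After this was seen, other clock genes were looked up: Hlf was at r = -0.885, Tef at -0.819, Bhlhe41 at -0.777, Dbp at -0.749, Clock at 0.363 and Cry1 at -0.52. The correlation with Arntl within single strains was 0.882 (C57BL/6), 0.99 (C3H/HeJ) and 0.926 (KK/HlJ) over 6 libraries each, Spearman's rho over the 18 libraries was 0.893, and r was 0.896 without the 2 libraries farthest from the median of Arntl. It was 0.916 over the 14 libraries left without the 4 that stood apart, a setting chosen after seeing the data. These genes were chosen for their correlation, so no p is given.

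The same pattern appeared between replicates of 1 group, where strain and treatment are fixed. In C57BL/6 sham, Arntl was at 3.017 and 110.2 CPM beside 443.7 and 810.1 for Col5a3. In C3H/HeJ ISO day 21, Arntl was at 0.6375 and 31.3 CPM beside 156.5 and 707.8. In KK/HlJ ISO day 21, Arntl was at 0.249 and 27.87 CPM beside 149.6 and 676.8. Arntl was chosen for its correlation with Col5a3 over these same libraries, so their agreement within groups is not separate evidence. In 9 of 9 groups the library with more Arntl had more Col5a3, as for 0.241% of other tested genes, which were not chosen in that way. The same count was 6 for Col1a2, 4 for Col3a1, Col5a1 and Col5a2 and 3 for Col1a1, and their correlations with Arntl ran from -0.239 to -0.032. Dbp, which peaks opposite to Arntl in the clock, was at 487.7 and 12.6 CPM in the C57BL/6 sham libraries, and it was lower in the library with more Arntl in 8 of 9 groups. Arntl ran from 3.02 to 110 CPM in sham (median 33) and from 0.249 to 56.8 in ISO libraries (median 6.43), so its level moved with the ISO comparison of Col5a3. Its part in the lower Col5a3 to Col5a1 ratio with ISO was not tested.

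**Figure D4:**
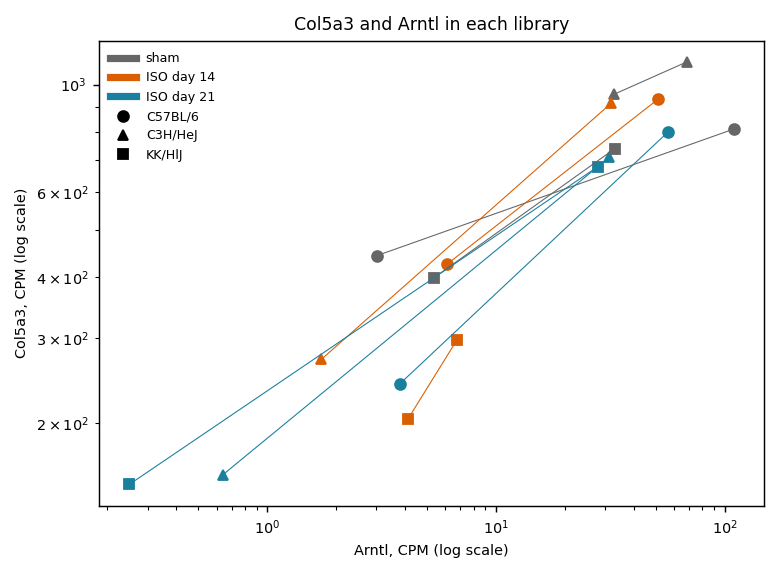
Col5a3 against Arntl in the 18 libraries (CPM, both axes logarithmic), with colour for condition, shape for strain and a line joining the replicates of a group. All 9 lines slope upwards, and the points run from 0.249 CPM Arntl with 149.6 CPM Col5a3 to 110.2 CPM Arntl with 810.1 CPM Col5a3.

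Genes that act on these collagens were read from 8 lists, for ISO over both days and the mean of the strains. In that comparison 0.0571% of all genes were called. Of 13 fibril-associated and fibril-regulating genes, 1 rose: Postn (periostin, a matricellular protein) by 2.17 on the log2 scale (SE 0.21, edgeR adjusted p = 1.49e-05). In the same list Comp differed by 1.15 (edgeR adjusted p = 0.0813), Col12a1 by 1.46 (0.0836) and Fn1 (fibronectin) by 1.14 (0.0845), and the median of the list was 0.316 against 0.028 for all genes. None of 22 folding and modification genes passed (median 0.012). Plod2, a lysyl hydroxylase that sets the type of crosslink, differed by 1.19 (edgeR adjusted p = 0.167), and P4ha3, a prolyl hydroxylase subunit with a mean of 5.03 CPM, by 4.82 (SE 1.47, 0.427). None of 14 secretion and propeptide cleavage genes passed (median 0.054), with Adamts2 and Pcolce2, a procollagen C-proteinase enhancer, both at 0.33 (edgeR adjusted p = 0.769).

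None of 5 lysyl oxidase genes, which crosslink collagen, passed (median 0.348), with Lox at 1.03 (edgeR adjusted p = 0.452) and Loxl2 at 0.35 (0.862). None of 8 collagen receptor genes passed (median -0.042), with Itgb1 at 0.29 and Ddr2 at 0.32 (edgeR adjusted p = 0.878 and 0.885). Of 9 breakdown genes 6 were tested and none passed (median 0.25); Ctsk, which encodes the collagenolytic protease cathepsin K, differed by 0.82 (edgeR adjusted p = 0.0909) and Timp1, an inhibitor of matrix metalloproteinases, by 0.56 (0.803). Mmp8, Mmp13 and Mmp1a did not pass the filter on low counts. None of 13 genes of TGF-beta input to collagen transcription passed (median 0.448), with Ccn2, a matrix-associated growth factor gene, at 1.14 (edgeR adjusted p = 0.174) and Tgfb3 at 0.45 (0.603). Of the 5 other fibrillar collagen genes none passed, with Col27a1 (mean 30.7 CPM) at 0.02 and Col11a2 (mean 3.68 CPM) at 0.99 (edgeR adjusted p = 1 for both). Col2a1, Col11a1 and Col24a1 averaged 0.735 to 1.15 CPM, and their single fitted folds are not given. The median of the list, 3.22 against 0.028 for all genes, falls among these low genes and so rests on few reads. Postn was the only gene of these 8 lists to pass, at day 14 (2.38, edgeR adjusted p = 1.22e-05) and at day 21 (1.95, 0.00032) as well.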

How the data were processed

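Each deposited file lists unnormalized whole-number counts for Ensembl genes, as the authors made them. FastQC, STAR 2.5.3a, edgeR and mm10 are named, per the submitters' processing notes. For the counter, its annotation and the use of strand, nothing is given in the sources used here. KAPA mRNA libraries were read from 1 end, per the labels' protocols.

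Of 53342 identifiers, 53237 matched GENCODE M21. edgeR 4.0.16 (R 4.3.3, TMM, robust quasi-likelihood fit, default filter) was fitted to all 18 libraries with 9 group terms and 9 residual degrees of freedom. The threshold was 0.05 on p adjusted by Benjamini-Hochberg over 15762 genes, in 19 comparisons. The SE of a log2 fold was derived from the fold and its F statistic. CPM used TMM effective library sizes, and marker sums used total counts. log2 CPM used a prior count of 2. Ratios were tested by exact permutation. Named genes were the 6 chains, the 3 genes most like each, and the members of each list with the lowest p. Other genes were chosen after their values were seen.

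Alternatives were DESeq2 1.42.0, RLE scaling, no filter, a replicate block, fits of only the groups compared, limma 3.58.1 voom with library weights, offsets for length and GC content, other gene lengths, dropping the 4 libraries whose median correlation was below 0.82, and leaving out each library. Fits of fewer libraries kept the 15762 genes. Recomputing the filter there, and the correlation of Col5a3 and Arntl without the 4 libraries, were added after seeing the data. The chains, lists and alternatives were chosen with earlier results of these data known. The main edgeR fit was run on simulated counts for ISO over both days only. Those counts had the same spread for every gene, no strain differences and no libraries that stood apart. The permutation test was run on simulated ratios. The other fits were not tested in this way.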

Additional observations from a re-analysis of the deposited data

How the results depend on the processing

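Chains called for ISO at day 14 (0 as reported) were 1 with DESeq2 and 2 with no filter on low counts. At day 21 (0) the count was 1 with no filter, over both days (0) it was 2 with no filter (Col3a1 and Col5a2), and in C3H/HeJ at day 14 (0) it was 1 with no filter. Leaving out 1 library or the 4 that stood apart, on the 15762 genes of the full fit, called 0 chains in every ISO comparison. Over both days the log2 folds ran from 0.72 to 1.16 for Col3a1, 0.54 to 0.92 for Col5a2 and -0.89 to -0.36 for Col5a3. After the data were seen, these fits were repeated with the filter recomputed. It asks for as many libraries as the smallest group holds, so it kept 17794 to 18017 genes where 1 library was left out, and the median prior degrees of freedom were 71.7 or more, many infinite, against 13.1 as reported. Chains called were then 0 to 3 at day 14, 0 to 1 at day 21, 0 to 3 over both days and 0 to 1 in KK/HlJ at day 21. Without the 4 libraries they were 2 at day 14, 2 over both days, 1 in C57BL/6 at day 14 and, for C3H/HeJ against C57BL/6, 1 in sham and 3 over conditions, with 1 for KK/HlJ against C57BL/6.

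Between strains, Col1a1 in C3H/HeJ against C57BL/6 over conditions (1 chain as reported) gave 0 to 1 with 1 library left out, with 5 of 12 calls on the reported genes and 11 of 12 with the filter recomputed. For KK/HlJ the count was 0 to 1 against C57BL/6, calls coming with the recomputed filter only, and 0 to 1 against C3H/HeJ. Over all genes, the ISO day 14 comparison called 6 genes as reported, 122 with DESeq2, 75 with no filter, 16 with offsets, 94 without the 4 libraries, 2 when only the groups compared were fitted and 3 to 234 with 1 library left out. The day 21 comparison called 7, 81, 55, 10, 78, 2 and 2 to 60 genes and voom 3, and that of both days called 9, 162, 97, 24 and 141, with 15 under the replicate block and 2 to 109 with 1 library left out. For C3H/HeJ against C57BL/6 over conditions the counts were 102, 392, 226, 112, 414, 198 and 54 to 149, with 324 by voom. For KK/HlJ against C57BL/6 they were 43, 210, 141, 50, 146, 43 and 27 to 357, with 74 by voom. For KK/HlJ against C3H/HeJ they were 64, 267, 144, 72, 146, 56 and 38 to 316, with 101 by voom. The cause was not tested.

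Some signs turned. Col5a3 at day 21 against day 14 was 0.30 without the 4 libraries and -0.53 to 0.34 with 1 library left out, and Col1a2 there was -0.33 to 0.11 (-0.34 to 0.11 with the filter recomputed). Col3a1 in C57BL/6 at day 21 was -0.12 with the replicate block, -0.0496 with voom, -0.0081 with only the groups compared and -0.53 to 0.43 with 1 library left out (-0.55 to 0.43 with the filter recomputed).

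Among ratios with ISO over both days, Col3a1 to Col1a1 was 0.42 with offsets (adjusted p = 0.0617, exact permutation test) and 0.43 without the 4 libraries (0.0741), and ran from 0.33 to 0.76 with 1 library left out. Col5a2 to Col5a1 was 0.42 without the 4 libraries (0.0741) and ran from 0.35 to 0.53. Col5a3 to Col5a1 was -1.03 with offsets (0.0617) and -0.62 without the 4 libraries (0.293) and ran from -1.36 to -0.88. Without the 4 libraries, Col1a2 to Col1a1 was 0.33 over both days, against 0.13 as reported, and Col5a1 to Col1a1 was -0.15, against -0.10. With 1 library left out, Col1a2 to Col1a1 ran from -0.0515 to 0.31 over both days and -0.15 to 0.25 at day 14, and Col5a1 to Col1a1 at day 21 from -0.17 to 0.0086. Between strains, Col1a2 to Col1a1 in KK/HlJ against C3H/HeJ was 0.36 without the 4 libraries and -0.37 to 0.0225 with 1 library left out. In KK/HlJ against C57BL/6, Col3a1 to Col1a1 was 0.22 without the 4 libraries and Col5a2 to Col5a1 was 0.0129 with offsets.

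Replicate numbers showed no common pairing over the groups: the correlations of same-numbered deviations ran from -0.14 to 0.16 over 36 pairs of groups, with a median of -0.01. Of these, 9 were over 0.1, the threshold of the check. The 4 libraries that stood apart were all replicate 1, and whether some groups shared a batch was not tested. With the replicate block the number of chains called was the same in all 19 comparisons. For ratios, as for Col5a2 to Col5a1 (0.44), the block cannot alter a mean difference in this balanced design, so its value carries no information on pairing. Counts of at least 1718 per chain leave counting error small beside the spread between libraries.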
